A study of Mus musculus with 16 samples.

Results

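The 8 genes described here encode liver enzymes that oxidise or reduce steroid hormones: Hsd3b2, Hsd3b3, Hsd3b5, Hsd11b1, Hsd17b2, Hsd17b6, Srd5a1 and Akr1c6. They were chosen by symbol, and each matched 1 of the 41585 rows of the count table. All 8 passed the filter on low counts, Hsd3b5 only through its male libraries. The filter left 13470 genes for testing. Liver RNA was sequenced from 4 groups with 4 libraries each: hCYP2B6-Tg females, Cyp2b-null females, hCYP2B6-Tg males and Cyp2b-null males. Per the labels, all mice were C57BL/6 and had eaten a diet with 60% fat for 16 weeks, so no group on another diet stands beside them. Cyp2b-null mice lack mouse Cyp2b genes, which encode cytochrome P450 enzymes with steroid hydroxylase activity, and hCYP2B6-Tg mice carry human CYP2B6. Whether hCYP2B6-Tg mice also lack mouse Cyp2b genes is not stated here, and no wild-type group is among the 4. The sources used here do not give the promoter of the transgene, the ages of the mice or whether each library came from its own animal. If they did not, p-values reflect only how far these libraries vary, and some of that may be technical.

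Hydroxysteroid dehydrogenases move a steroid between its keto and hydroxy forms and so switch androgens, oestrogens and glucocorticoids between more and less active molecules. In the liver these enzymes, with 5α-reductase and aldo-keto reductases of the AKR1C family, clear steroids from the circulation and set the local supply of active hormone. Several of these genes are known in mouse liver for sex-dependent expression that follows the pattern of growth hormone release. In bulk tissue, fewer cells of a type and less RNA per cell cannot be told apart.

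Library totals ran from 5584587 to 9672708 counts, and Xist and Ddx3y matched the labelled sex in 16 of 16 libraries. Summed over the 5 hepatocyte markers Alb, Apoa1, Ttr, Serpina1a and Tat, libraries held 99951 to 120782 CPM in hCYP2B6-Tg females, 102142 to 126233 CPM in Cyp2b-null females, 100638 to 106926 CPM in hCYP2B6-Tg males and 93697 to 99537 CPM in Cyp2b-null males. The 5 markers of adrenal or gonadal steroid-making cells summed to at most 2.96 CPM in any library. Cyp11b1 and Cyp11b2 were at 0 in all 16, and Cyp11a1 had 3 counts in hCYP2B6-Tg males and 0 in the other groups. Cyp21a1 had 1 count in hCYP2B6-Tg females, 5 in Cyp2b-null females and 0 in males. Star had 36 to 67 counts in a group. The kidney markers reached at most 0.431 CPM, and Cyp2b-null male 4 held 22.8 CPM of the pancreatic gene Ctrb1, against at most 0.104 CPM elsewhere. Cyp2b-null female 1, Cyp2b-null female 3 and hCYP2B6-Tg male 4 were set apart by eye in earlier results of these data; their root mean square difference from the other 3 libraries of their group was 0.433, 0.446 and 0.401 on the log2 scale, in a range of 0.332 to 0.446 over the 16 libraries, so hCYP2B6-Tg male 4 was not extreme by this measure. CPM are counts scaled to a common library size by TMM, as edgeR computes them, and libraries are named by the number in their title. Taking 3 counts as the limit that a count of 0 allows, the floor was 0.312 to 0.540 CPM per library, for counting error only.

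The 3 Hsd3b genes lie near each other on the minus strand of chromosome 3 in GRCm38 (RefSeq positions), Hsd3b5 at 98618636-98645534, Hsd3b2 at 98711107-98724543 and Hsd3b3 at 98741476-98764540. They are shown first because their products are close copies while their sex dependence was very unequal: Hsd3b5 was near 0 in every female liver, whereas Hsd3b2 and Hsd3b3 were not. The 250 bases before their start sites are printed 5′ to 3′ from RefSeq (GRCm38.p6, chr3:98645535-98645784 for Hsd3b5, chr3:98763129-98763378 for Hsd3b3 and chr3:98724544-98724793 for Hsd3b2, all minus strand). Capitals mark runs of at least 12 bases shared between any pair of the 3.
Hsd3b5: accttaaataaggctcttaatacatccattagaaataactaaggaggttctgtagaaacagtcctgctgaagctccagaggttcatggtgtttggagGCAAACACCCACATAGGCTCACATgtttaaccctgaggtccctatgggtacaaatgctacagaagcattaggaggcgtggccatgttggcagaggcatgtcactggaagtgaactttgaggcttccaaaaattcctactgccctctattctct
Hsd3b3: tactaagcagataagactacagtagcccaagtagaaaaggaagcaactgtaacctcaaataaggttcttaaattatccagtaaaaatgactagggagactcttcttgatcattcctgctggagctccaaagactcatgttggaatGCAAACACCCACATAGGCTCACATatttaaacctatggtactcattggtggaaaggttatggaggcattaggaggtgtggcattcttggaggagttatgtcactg
Hsd3b2: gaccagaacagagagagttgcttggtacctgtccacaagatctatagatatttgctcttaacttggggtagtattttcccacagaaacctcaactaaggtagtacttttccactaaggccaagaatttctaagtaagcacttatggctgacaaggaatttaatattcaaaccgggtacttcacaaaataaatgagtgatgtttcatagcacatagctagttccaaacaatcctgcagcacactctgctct
Hsd3b5 and Hsd3b3 share 1 run of 24 bases and, in a local alignment, 151 of 199 aligned bases (75.9%). Hsd3b2 shares no run longer than 8 bases with either of them. RefSeq also lists a second Hsd3b3 start, and its 250 bases match those printed at 248 of 249 aligned bases. Promoter sequence was found for 7 of the 8 genes. In the window from 250 bases before to 50 bases after the start, searched on both strands, none of the 7 holds TTCNNNGAA, the STAT5 motif, which 8.30% of 32851 mouse promoters hold. The C/EBP motif TTGCNNAA (10.8% of promoters) and the steroid receptor motif ACANNNTGT (6.85%) are also in none of the 7. The HNF4 motif CAAAGTNCA, searched after these sequences had been seen, lies in the Hsd3b5 window from 44 bases before the start and in the Hsd3b3 window from base 5 of the transcript, and 1.41% of promoters hold it. These matches describe letters only and no binding was measured.

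Females and males differed at most of these genes, and the genotypes at none that passed the test. In hCYP2B6-Tg livers 7 of the 8 genes passed between the sexes: Hsd3b2, Hsd3b3, Hsd3b5, Srd5a1 and Akr1c6 were lower in females, and Hsd17b2 and Hsd17b6 were higher. That count was 3 without hCYP2B6-Tg female 2, and 4 without hCYP2B6-Tg female 5, hCYP2B6-Tg male 3 or hCYP2B6-Tg male 5. Over all tested genes 10.3% were called in that comparison, 4.69% higher and 5.56% lower in females; with library totals as the only scaling the calls split into 769 higher and 606 lower, against 632 and 749 in the main fit. In Cyp2b-null livers 5 of the 8 passed, the same 5 lower in females, where 3.95% of tested genes were called lower, 3.57% higher and 7.52% in either direction. Hsd3b5 is in the counts of each genotype, though it passed the filter on low counts only through males, where it is high. The 8 genes were chosen with earlier results of these data known, and several are known for sex-dependent expression. Their counts and medians between the sexes, set beside those of all tested genes, are therefore not an independent finding about the set. Each comparison used the quasi-likelihood test of edgeR with Benjamini-Hochberg adjustment over 13470 genes and a threshold of 0.05. The median log2 fold change of the 8 genes, female over male, was -0.38 in hCYP2B6-Tg livers and -0.56 in Cyp2b-null livers, beside 0.016 and 0.0046 over all tested genes. Female libraries lay wholly above or below male libraries for 6 of the 8 genes in hCYP2B6-Tg mice, a pattern met by 15.6% of tested genes, and for 7 of the 8 in Cyp2b-null mice, where 12.3% met it. Macrophage markers moved with sex too: the 4 genes Adgre1, Clec4f, Cd68 and Csf1r summed to 229.5 to 269.5 CPM in hCYP2B6-Tg females against 185 to 213 CPM in hCYP2B6-Tg males, and to 223 to 380 CPM in Cyp2b-null females against 169 to 221 CPM in Cyp2b-null males. The part of this difference in the results was not tested.

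**Figure D1:**
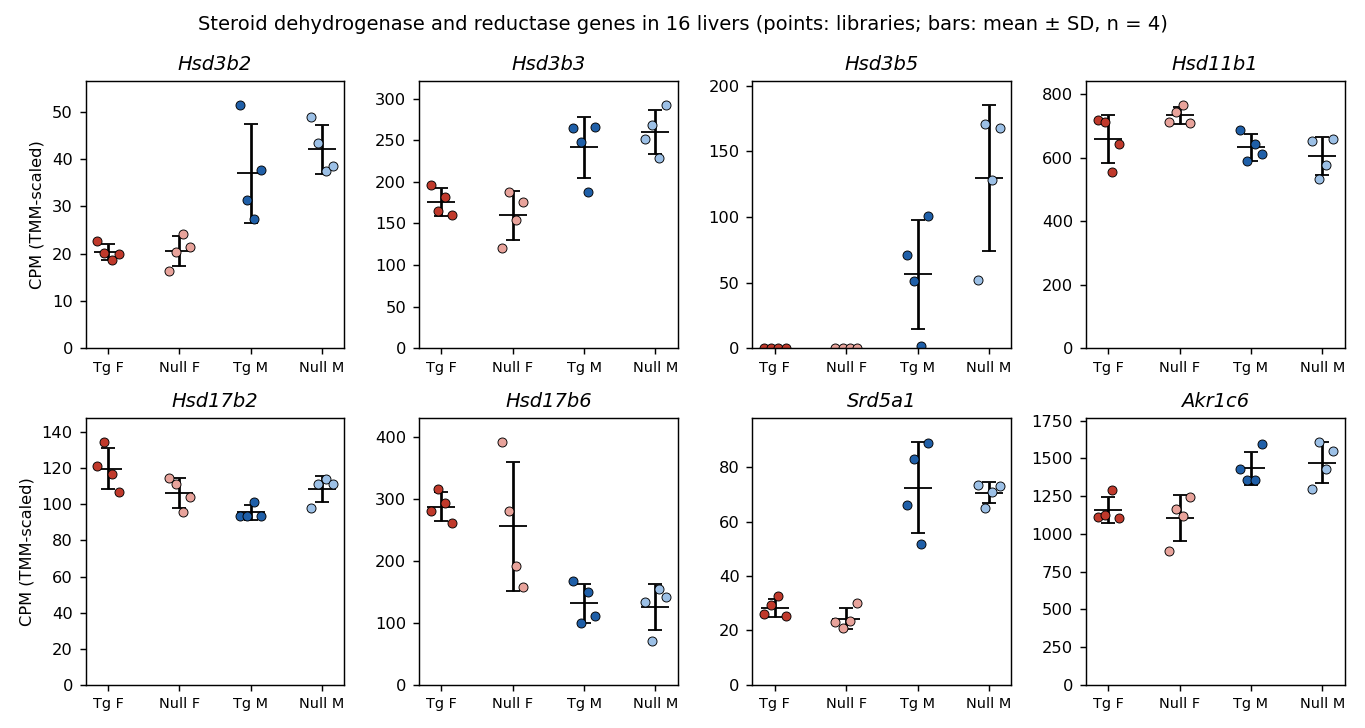
Levels of the 8 genes in CPM (TMM-scaled, vertical axes from 0) in hCYP2B6-Tg females, Cyp2b-null females, hCYP2B6-Tg males and Cyp2b-null males; points are single libraries and bars the mean ± SD (n = 4). Hsd3b5 lies at 0.350 CPM or less in all 8 female libraries and at 1.80 to 171 CPM in male libraries.

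Hsd3b5 encodes an enzyme of the 3β-hydroxysteroid dehydrogenase family that is known in mouse liver as a male-predominant 3-ketosteroid reductase, which inactivates steroids such as dihydrotestosterone. It stood at 0.268, 0.116, 0.151 and 0 CPM in hCYP2B6-Tg females 1, 2, 4 and 5 and at 71.0, 51.4, 1.80 and 100.5 CPM in hCYP2B6-Tg males 2, 3, 4 and 5. In Cyp2b-null mice it stood at 0.350, 0, 0 and 0 CPM in females 1, 3, 4 and 5 and at 51.7, 171, 128 and 168 CPM in males 1 to 4. All 8 female libraries held at most 2 counts, under the limit of 3, and hCYP2B6-Tg male 4 was far below the other 7 male libraries. Summed over a group, Hsd3b5 had 4 counts in hCYP2B6-Tg females against 1665 in hCYP2B6-Tg males, which is 417-fold lower per count sequenced (95% counting interval 163 to 1534). The 2 counts in Cyp2b-null females against 3651 in Cyp2b-null males give a 2044-fold lower level (565 to 16881). Both intervals cover counting error only. Adjusted p was 2.55e-05 in hCYP2B6-Tg mice and 1.70e-06 in Cyp2b-null mice with edgeR, and 0.412 and 0.274 with limma voom, which made no call. Because Hsd3b5 passed the filter on low counts only through males, these p-values are not independent of the filter and add no support to the counts.

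Among males Hsd3b5 averaged 56.2 ± 41.5 CPM in hCYP2B6-Tg livers and 129.7 ± 55.6 CPM in Cyp2b-null livers (SD, n = 4 each). The log2 fold change, hCYP2B6-Tg over Cyp2b-null, was -1.22 ± 0.51 (SE, 95% interval -2.27 to -0.16; unadjusted p = 0.0262, edgeR adjusted p = 0.607), so it did not pass. The groups overlap, because hCYP2B6-Tg males 2 and 5 lay above Cyp2b-null male 1 at 51.7 CPM. Without hCYP2B6-Tg male 4 the hCYP2B6-Tg mean was 74.3 ± 24.7 CPM (n = 3) and the log2 fold change -0.80 (edgeR adjusted p = 0.479), while limma voom gave -2.16 (adjusted p = 0.694). No fold is given between the genotypes in females, where both groups were at the limit of detection.

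Hsd3b2 and Hsd3b3 encode 3β-hydroxysteroid dehydrogenases of the kind that turn pregnenolone-type steroids into their 3-keto forms. Hsd3b2 had 22.7, 20.1, 18.6 and 19.9 CPM in hCYP2B6-Tg females against 51.3, 31.3, 27.4 and 37.7 CPM in hCYP2B6-Tg males, in the order of the library numbers given for Hsd3b5. The Cyp2b-null livers had 16.3, 20.4, 24.1 and 21.3 CPM in females against 48.8, 43.4, 37.4 and 38.6 CPM in males. Every female library lay below every male library in both genotypes. Female over male, the log2 fold change was -0.86 ± 0.16 (edgeR adjusted p = 0.000828) in hCYP2B6-Tg livers and -1.02 ± 0.16 (adjusted p = 0.000118) in Cyp2b-null livers. Between genotypes it was -0.025 ± 0.16 in females (adjusted p = 0.988) and -0.19 ± 0.15 in males (adjusted p = 0.855).

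Hsd3b3 was also lower in females. It had 196, 165, 182 and 160.0 CPM in hCYP2B6-Tg females against 264, 248, 187 and 266 CPM in hCYP2B6-Tg males. In Cyp2b-null mice it had 121, 187, 154 and 176 CPM in females against 252, 268, 229 and 292 CPM in males. The sexes overlapped in hCYP2B6-Tg mice through hCYP2B6-Tg female 1 and hCYP2B6-Tg male 4, and did not overlap in Cyp2b-null mice. The log2 fold change, female over male, was -0.46 ± 0.13 (edgeR adjusted p = 0.0221) in hCYP2B6-Tg livers and -0.70 ± 0.13 (adjusted p = 0.000810) in Cyp2b-null livers. The Hsd3b3 call in hCYP2B6-Tg livers was lost when 1 of 5 libraries was left out, with edgeR adjusted p of 0.0720 without hCYP2B6-Tg female 2, 0.0800 without hCYP2B6-Tg female 5, 0.0668 without hCYP2B6-Tg male 2, 0.0618 without hCYP2B6-Tg male 3 and 0.0752 without hCYP2B6-Tg male 5. Without hCYP2B6-Tg male 4 the log2 fold change was -0.56 and the adjusted p 0.00302.

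These close copies may share reads, and the sources used here do not say how multi-mapping reads were counted. Of the 50-base windows of Hsd3b2 exons, 26.9% occur in another gene, mainly Hsd3b3, and of those of Hsd3b3 8.73%, mainly Hsd3b2. For Hsd3b5 the share is 21.2%, mainly Hsd3b4, whose row held 0 counts in all 8 female libraries and 4 counts in each male group. Hsd3b1 had 0 counts in all 16 libraries and Hsd3b6 0 to 3 counts in a group. With the rows Hsd3b1 to Hsd3b6 summed, the log2 fold change, female over male, was -0.77 in hCYP2B6-Tg livers (edgeR adjusted p = 0.0121) and -1.26 in Cyp2b-null livers (adjusted p = 0.000314). Exons of Zfp697 on the other strand overlap 99 bases of Hsd3b2 and 281 bases of Hsd3b3, and the sources used here do not give the strand setting.

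Srd5a1 encodes steroid 5α-reductase type 1, which reduces testosterone, progesterone and corticosterone and is a main route of steroid clearance in liver. Its level was 25.9, 29.2, 32.6 and 25.4 CPM in hCYP2B6-Tg females against 66.3, 82.9, 51.9 and 89.0 CPM in hCYP2B6-Tg males. Cyp2b-null females had 23.1, 20.8, 23.5 and 29.9 CPM, against 73.5, 65.1, 70.7 and 73.1 CPM in Cyp2b-null males. Every female library lay below every male library, and hCYP2B6-Tg males spread more widely than Cyp2b-null males (coefficient of variation 23.1% and 5.50%). Female over male, the log2 fold change of Srd5a1 was -1.36 ± 0.14 in hCYP2B6-Tg livers (edgeR adjusted p = 5.57e-07) and -1.52 ± 0.14 in Cyp2b-null livers (adjusted p = 1.31e-07), a level 0.390 and 0.348 times that of males. Between genotypes the log2 fold change was 0.20 ± 0.15 in females (adjusted p = 0.796) and 0.038 ± 0.13 in males (adjusted p = 0.979). The predicted transcript Gm17108 shares 476 exon bases with Srd5a1 on the same strand, so 15.1% of its windows are not unique.

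Akr1c6 encodes the mouse liver 17β-hydroxysteroid dehydrogenase type 5, an aldo-keto reductase that makes testosterone from androstenedione. It had 1112, 1126, 1288 and 1107 CPM in hCYP2B6-Tg females against 1428, 1360.2, 1357 and 1593 CPM in hCYP2B6-Tg males. The values in Cyp2b-null livers were 886, 1166, 1121 and 1243 CPM in females against 1299, 1606, 1432 and 1552 CPM in males. The sexes did not overlap in either genotype, though the difference was small. The log2 fold change, female over male, was -0.31 ± 0.096 (edgeR adjusted p = 0.0407) in hCYP2B6-Tg livers and -0.42 ± 0.096 (adjusted p = 0.00692) in Cyp2b-null livers. The hCYP2B6-Tg call was lost, with edgeR adjusted p of 0.0868, 0.103 and 0.108 without hCYP2B6-Tg female 1, 2 or 5 and of 0.0660, 0.0597 and 0.143 without hCYP2B6-Tg male 2, 3 or 5, and 0.0798 with library totals as the only scaling. In Cyp2b-null livers the adjusted p was 0.0707 without the 3 libraries set apart above.

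Hsd17b6 encodes an enzyme related to retinol dehydrogenases that oxidises 3α-androstanediol back toward dihydrotestosterone. It was higher in females, with 280.0, 315, 294 and 260.0 CPM in hCYP2B6-Tg females against 167, 99.0, 149 and 110.2 CPM in hCYP2B6-Tg males. In Cyp2b-null livers it had 391, 280.2, 192 and 158 CPM in females against 134, 70.8, 154 and 142 CPM in males. Females lay above males in both genotypes, but Cyp2b-null females ranged 391 to 158 CPM, a coefficient of variation of 40.8% that exceeds that of 90.3% of tested genes in that group, against 8.07% in hCYP2B6-Tg females. Female over male, the log2 fold change was 1.13 ± 0.30 (edgeR adjusted p = 0.0289) in hCYP2B6-Tg livers and 1.02 ± 0.30 (adjusted p = 0.0567, no call) in Cyp2b-null livers. The difference between these 2 values was 0.10 ± 0.41 (95% interval -0.80 to 1.0; adjusted p = 0.978). The hCYP2B6-Tg call was lost, with edgeR adjusted p of 0.0501, 0.0690, 0.0591 and 0.0522 without hCYP2B6-Tg female 1, 2, 4 or 5 and 0.0875, 0.0507 and 0.0837 without hCYP2B6-Tg male 3, 4 or 5, and 0.0523 with no filter on low counts. In Cyp2b-null livers the gene passed without Cyp2b-null female 5 (adjusted p = 0.0253) and with DESeq2 (adjusted p = 0.00667), but the log2 fold change was 0.48 (adjusted p = 0.448) without the 3 libraries set apart above. Without them the difference between the sex effects was 0.71 (adjusted p = 0.712), and the genotype value in females was 0.72 (adjusted p = 0.776) against 0.17 with all libraries. Of its 50-base windows 12.1% occur elsewhere, mainly in Rdh1.

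Hsd17b2 encodes the dehydrogenase that oxidises oestradiol and testosterone to their less active 17-keto forms. It had 121, 135, 117 and 107 CPM in hCYP2B6-Tg females against 93.7, 93.6, 101 and 93.3 CPM in hCYP2B6-Tg males, with every female library above every male library. Cyp2b-null livers had 115, 111, 95.9 and 104 CPM in females against 98.0, 111, 114 and 111 CPM in males, and these overlapped. The log2 fold change, female over male, was 0.33 ± 0.084 (edgeR adjusted p = 0.0134; 0.0727 without hCYP2B6-Tg female 2) in hCYP2B6-Tg livers and -0.032 ± 0.085 (adjusted p = 0.885) in Cyp2b-null livers. The difference between them was 0.36 ± 0.12 (95% interval 0.11 to 0.61; unadjusted p = 0.00638, edgeR adjusted p = 0.457), so the sex effects were not shown to differ between genotypes. That difference is equally the genotype effect in females less that in males: hCYP2B6-Tg over Cyp2b-null, the log2 fold change was 0.17 ± 0.084 in females (adjusted p = 0.663) and -0.19 ± 0.085 in males (unadjusted p = 0.0385, adjusted p = 0.658).

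**Figure D2:**
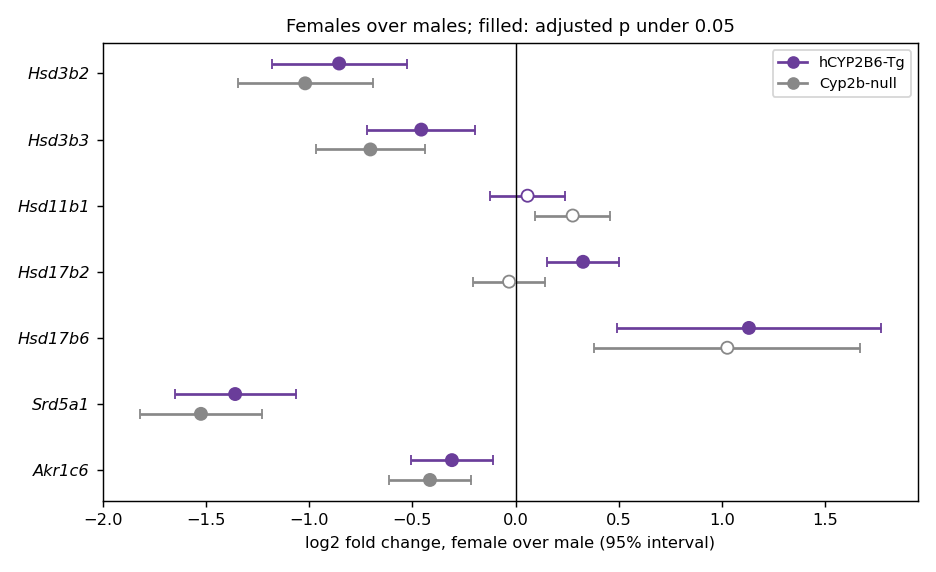
Log2 fold change, female over male, with its 95% interval from edgeR for 7 of the genes in hCYP2B6-Tg livers (purple, upper) and Cyp2b-null livers (grey, lower); filled points passed at an adjusted p under 0.05, and Hsd3b5 is left out because females were at the limit of detection. Srd5a1 lies at -1.36 and -1.52, Hsd17b6 at 1.13 and 1.02, and only Hsd17b2 changes sign between the genotypes, at 0.33 and -0.032.

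Hsd11b1 encodes 11β-hydroxysteroid dehydrogenase type 1, which regenerates active corticosterone from its 11-keto form in hepatocytes. Its libraries spanned 534 to 765 CPM over all groups, with 719.6, 713, 556 and 645 CPM in hCYP2B6-Tg females against 687, 590.4, 643 and 611 CPM in hCYP2B6-Tg males. Cyp2b-null females had 713, 746, 765 and 711 CPM, all above the 654, 534, 577 and 659 CPM of Cyp2b-null males. Female over male, the log2 fold change was 0.057 ± 0.088 in hCYP2B6-Tg livers (95% interval -0.13 to 0.24; edgeR adjusted p = 0.757) and 0.28 ± 0.088 in Cyp2b-null livers (0.093 to 0.46; adjusted p = 0.0586), neither of which passed. The Cyp2b-null value passed without hCYP2B6-Tg female 4 (adjusted p = 0.0365), without Cyp2b-null male 4 (0.0497), with library totals as the only scaling (0.0446), with no filter (0.0314), with DESeq2 (0.0386) and with limma voom (0.0478). H6pd, which supplies Hsd11b1 with NADPH in the endoplasmic reticulum, was lower in females, with a log2 fold change of -0.44 ± 0.11 in hCYP2B6-Tg livers (adjusted p = 0.0156) and -0.66 ± 0.12 in Cyp2b-null livers (adjusted p = 0.000505).

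Genes on the receiving side of these steroids were listed by function, with earlier results of these data known. Of 9 receptor and plasma carrier genes 5 were tested, and 2 rose in females over males in both genotypes. Over all tested genes 4.69% were called higher in females in hCYP2B6-Tg livers and 3.57% in Cyp2b-null livers. The 2 were Esr1 and Serpina6. Esr1, the oestrogen receptor gene, averaged 36.0 ± 6.93 CPM in hCYP2B6-Tg females against 15.3 ± 2.98 CPM in hCYP2B6-Tg males and 42.1 ± 3.50 CPM in Cyp2b-null females against 12.5 ± 3.44 CPM in Cyp2b-null males (SD, n = 4). Its log2 fold change was 1.24 ± 0.17 (edgeR adjusted p = 2.49e-05) in hCYP2B6-Tg livers and 1.75 ± 0.17 (adjusted p = 2.95e-07) in Cyp2b-null livers. Serpina6, which encodes corticosteroid-binding globulin, had log2 fold changes of 0.76 ± 0.12 (adjusted p = 0.000175) and 1.05 ± 0.12 (adjusted p = 2.70e-06). Of 11 genes that glucocorticoids induce, 1 passed between the sexes in each genotype and 0 fell. That share is near that of all tested genes called in either direction (10.3% in hCYP2B6-Tg and 7.52% in Cyp2b-null livers), so the count does not set the list apart. The genes were Fkbp5, a chaperone of the glucocorticoid receptor, in hCYP2B6-Tg livers (0.87 ± 0.25, adjusted p = 0.0273) and Tsc22d3, a glucocorticoid-induced leucine zipper gene, in Cyp2b-null livers (0.60 ± 0.17, adjusted p = 0.0376). The median log2 fold change of the 11, female over male, was 0.19 in hCYP2B6-Tg and 0.68 in Cyp2b-null livers, beside 0.016 and 0.0046 over all tested genes. Estimates were above 0 for 9 and 11 of the 11. At an unadjusted p under 0.05 were 3 and 4 of them, beside 23.5% and 19.9% of all tested genes. The list as a whole was not tested. No gene of either list passed between genotypes with edgeR. At an unadjusted p under 0.05 the counts among the 5 receptors and carriers were 0 in females and 1 in males, and among the 11 glucocorticoid-induced genes 1 and 2. Over all tested genes the shares were 7.59% in females and 7.17% in males. The smallest p among the genes of these 2 lists belonged to the clock gene Per1 in males, at 26.3 ± 8.05 CPM in hCYP2B6-Tg livers and 11.0 ± 2.26 CPM in Cyp2b-null livers (log2 fold change 1.24 ± 0.30, edgeR adjusted p = 0.228).

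Between genotypes 0 of the 8 steroid enzyme genes passed with edgeR in females, where 0% of the 13470 tested genes did, and 0 of 8 in males, where 0.111% did (0.052% higher and 0.0594% lower). DESeq2 and limma voom also called 0 of the 8 in each sex. At an unadjusted p under 0.05 the count was 0 of 8 in females and 2 of 8 in males, Hsd3b5 and Hsd17b2, beside 7.59% and 7.17% of all tested genes. hCYP2B6-Tg and Cyp2b-null libraries overlapped for all 8 genes in both sexes, while 3.5% of tested genes in females and 4.77% in males did not overlap. Averaged over the sexes 0 of 8 passed (0.0148% of tested genes) and 0 of 8 reached an unadjusted p under 0.05 (6.95%). For 0 of 8 did the genotype effect differ between the sexes (0.0445% of tested genes, 0.0223% in each direction), with 1 of 8, Hsd17b2, at an unadjusted p under 0.05 (7.7%). The median log2 fold change of the 8, hCYP2B6-Tg over Cyp2b-null, was 0.15 in females and -0.073 in males, beside 0.0016 and -0.0043 over all tested genes. The intervals bound the changes that these libraries allow: for Akr1c6 they ran from -0.13 to 0.27 in females and -0.24 to 0.16 in males, and for Hsd11b1 from -0.34 to 0.027 and -0.12 to 0.25. For Hsd17b6 they were wider, from -0.46 to 0.80 in females and -0.57 to 0.71 in males.

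**Figure D3:**
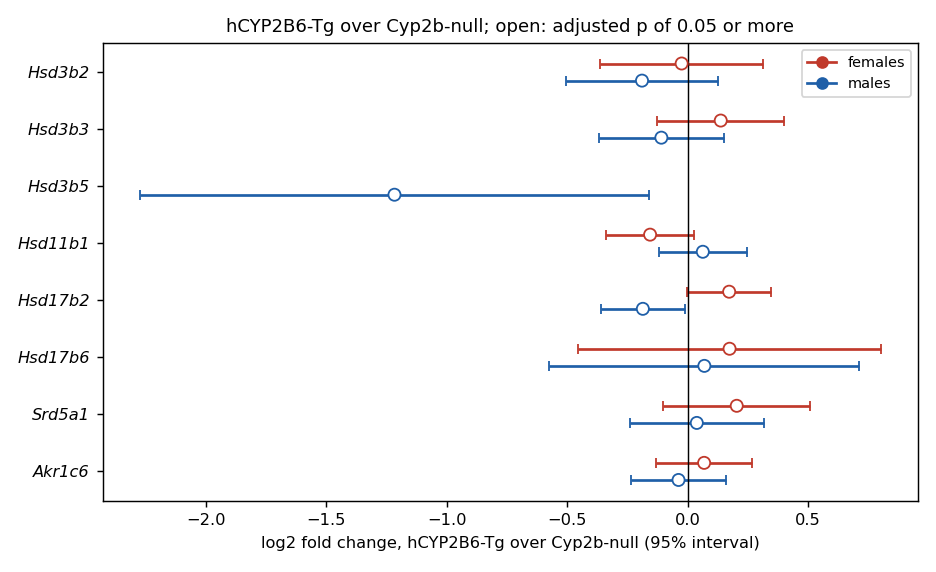
Log2 fold change, hCYP2B6-Tg over Cyp2b-null, with its 95% interval from edgeR for the 8 genes in females (red, upper) and males (blue, lower); all points are open because 0 of 8 passed in either sex, and Hsd3b5 in females is not shown. Hsd3b5 in males lies at -1.22 with the widest interval, -2.27 to -0.16, and Hsd17b2 lies at 0.17 in females and -0.19 in males.

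One library carried the low end of several genes in males. hCYP2B6-Tg male 4 was the lowest of the 8 male libraries for Hsd3b2, Hsd3b3, Hsd3b5 and Srd5a1, 4 of the 8 genes, while it was the lowest for 11.9% of all tested genes. For Hsd17b2 it was the highest of the hCYP2B6-Tg males instead, at 101 CPM. Hsd3b5 was the 1 gene of the 8 whose log2 CPM had an SD over 1 across the 16 libraries, at 4.07, and the highest male library held 95.1 times the level of the lowest. The genes whose centred log2 profile lay nearest to it over the 16 libraries were the organic anion transporter gene Slco1a1 (root mean square difference 1.08), the fatty acid hydroxylase gene Cyp4a12b (1.28) and Serpina4-ps1 (1.31). Slco1a1 had 535, 463, 159 and 609 CPM in hCYP2B6-Tg males and 379, 663, 486 and 655 CPM in Cyp2b-null males. It was lowest in hCYP2B6-Tg male 4 as Hsd3b5 was, but it was picked for likeness to Hsd3b5 in these same libraries. Among 20 genes listed as growth hormone dependent and sex-biased, 10 were called higher and 8 lower in hCYP2B6-Tg females than males, and 10 and 9 in Cyp2b-null mice. Over all tested genes 10.3% and 7.52% were called in either direction. The list was chosen for known sex bias, so its counts between the sexes are not a finding. Of the 9 called lower in Cyp2b-null females, hCYP2B6-Tg male 4 was the lowest male library for 3, Cyp4a12b, Cyp7b1 and Slco1a1. Cyp2b-null male 1 was the lowest for 3 others, Cyp2d9, Mup20 and Mup7. Between genotypes 0 of the 20 passed in either sex with edgeR, beside 0% of all tested genes in females and 0.111% in males. At an unadjusted p under 0.05 were 3 of the 20 in females and 3 in males, beside 7.59% and 7.17% of all tested genes.

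**Figure D4:**
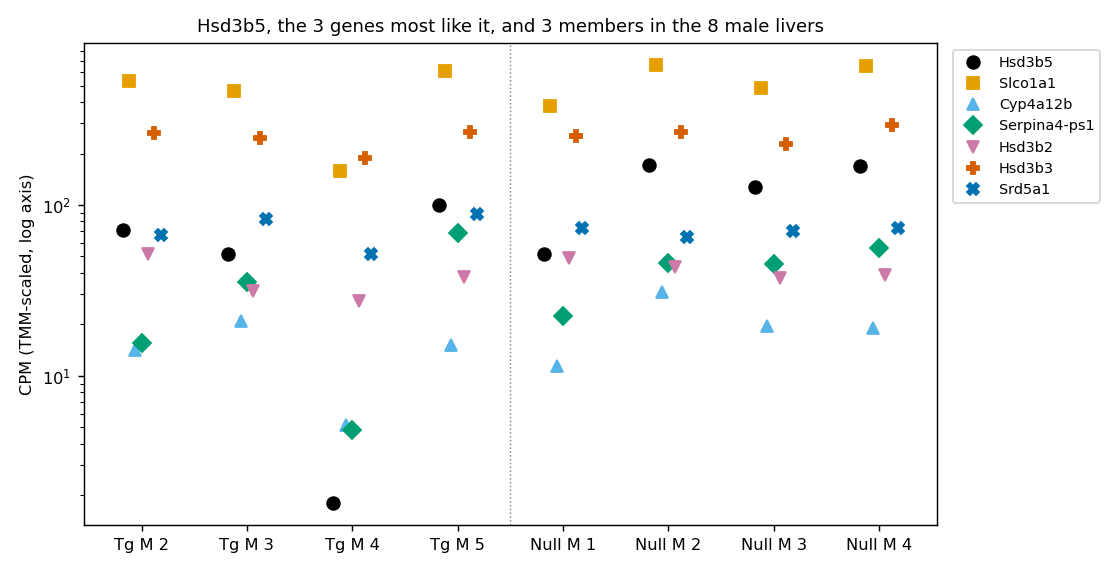
Levels in CPM (TMM-scaled, log axis) of Hsd3b5, the 3 genes with the nearest profile, and Hsd3b2, Hsd3b3 and Srd5a1 in the 4 hCYP2B6-Tg males (left) and the 4 Cyp2b-null males (right); each symbol is 1 gene in 1 library, set slightly apart so that symbols do not hide each other. All 7 genes are at their lowest in hCYP2B6-Tg male 4, Hsd3b5 at 1.80 CPM and Slco1a1 at 159 CPM. The choice of genes favours this: 3 were picked for likeness to Hsd3b5 in these same libraries, and the members shown are those lowest in that library. Hsd11b1, Hsd17b2, Hsd17b6 and Akr1c6, which were not lowest there, are left out.

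Per kilobase of exon, Akr1c6 had the highest level of the 8 genes in every group, with 569.6 ± 42.9 CPM per kb in hCYP2B6-Tg females, 543 ± 75.7 in Cyp2b-null females, 706 ± 54.3 in hCYP2B6-Tg males and 724 ± 67.2 in Cyp2b-null males (SD, n = 4). Hsd11b1 and Hsd17b6 came next in females and their ranges overlapped there. In Cyp2b-null males Hsd3b5 came after Akr1c6 and Hsd11b1, at 83.7 ± 35.9 CPM per kb, with a range that overlapped those of Hsd17b6 (79.5 ± 23.6), Hsd17b2 and Hsd3b3. In hCYP2B6-Tg males Hsd3b5 averaged 36.3 ± 26.8 CPM per kb, and its range of 1.16 to 64.8 overlapped those of Hsd17b6, Hsd17b2, Hsd3b3, Srd5a1 and Hsd3b2. Its place in the order rested on hCYP2B6-Tg male 4: without it Hsd3b5 averaged 48.0 ± 15.9 CPM per kb (n = 3), above Hsd3b3 at 40.6 ± 1.58, where with it Hsd3b3 was above. By group mean Hsd3b2 was lowest in males, at 7.42 to 13.9 CPM per kb in hCYP2B6-Tg males and 10.1 to 13.2 in Cyp2b-null males, and Hsd3b5 was lowest in females. In hCYP2B6-Tg male 4 Hsd3b5 was below Hsd3b2. Lengths are the union of annotated exons, so the long annotated Hsd3b3 exons (6396 bases) lower its value on this scale.

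Among other genes of steroid oxidation and reduction more passed as lower than as higher in females. From a list of 29 chosen by function, 19 were tested, and 1 rose and 9 fell in hCYP2B6-Tg females over males, while 3 rose and 7 fell in Cyp2b-null females over males. Over all tested genes 4.69% were called higher and 5.56% lower in hCYP2B6-Tg livers, and 3.57% higher and 3.95% lower in Cyp2b-null livers. The list was made with earlier results of these data known, so its counts beside these shares are not an independent finding. In both genotypes 6 fell: Hsd17b4, Hsd17b10, Hsd17b12, Akr1c14, Akr1c19 and H6pd. H6pd is in these counts though its part, as given above, is to supply Hsd11b1 with NADPH. Hsd17b10, a mitochondrial dehydrogenase, had a log2 fold change of -0.81 ± 0.085 in hCYP2B6-Tg livers (edgeR adjusted p = 3.49e-07) and -0.76 ± 0.085 in Cyp2b-null livers (adjusted p = 1.01e-06). Hsd17b12, which also reduces fatty acids during elongation, had -0.76 ± 0.088 (adjusted p = 1.71e-06) and -0.66 ± 0.088 (adjusted p = 1.10e-05). Akr1c20, an aldo-keto reductase gene beside Akr1c6, rose in both, by 0.42 ± 0.085 (adjusted p = 0.00175) and 0.39 ± 0.085 (adjusted p = 0.00413). In hCYP2B6-Tg livers Hsd17b7 of cholesterol synthesis (-0.63 ± 0.12, adjusted p = 0.00150) and Akr1c13 (-0.36 ± 0.086, adjusted p = 0.00686) fell as well. The 5β-reductase gene Akr1d1 rose in Cyp2b-null livers (0.53 ± 0.12, adjusted p = 0.00609). With edgeR 0 of the 19 passed between genotypes. At an unadjusted p under 0.05 were 1 of 19 in females and 2 of 19 in males, beside 7.59% and 7.17% of all tested genes. Those with the smallest p were Rdh16, which oxidises retinol and some steroids, in females (-0.34 ± 0.10, adjusted p = 0.466) and Hsd17b13, a lipid droplet enzyme gene, in males (0.40 ± 0.12, adjusted p = 0.359).

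**Figure D5:**
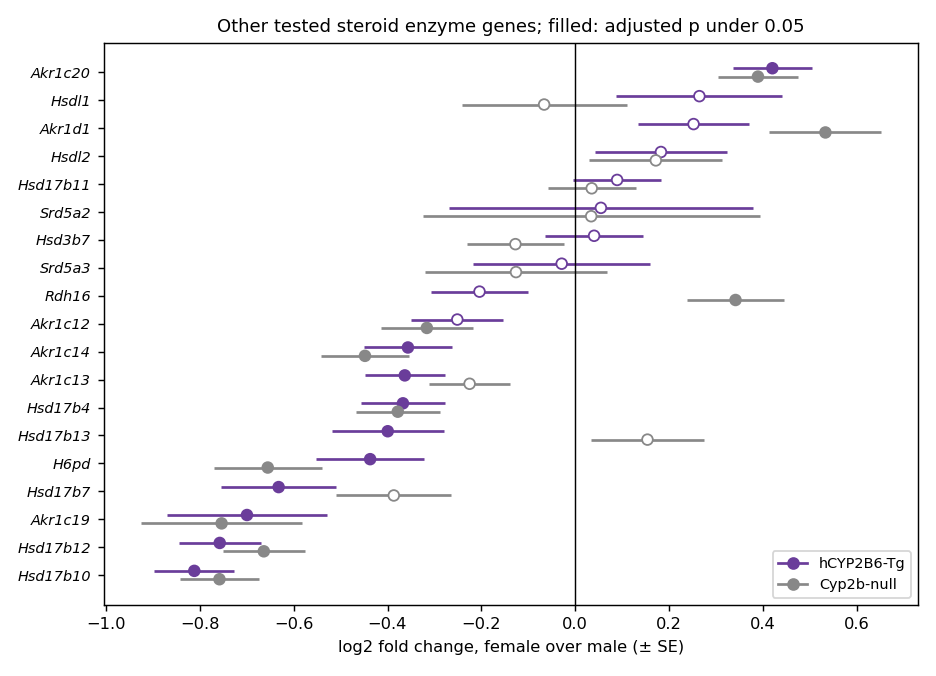
Log2 fold change ± SE, female over male, for the 19 tested genes of the wider steroid enzyme list in hCYP2B6-Tg livers (purple, upper) and Cyp2b-null livers (grey, lower), ordered by the hCYP2B6-Tg value; filled points passed at an adjusted p under 0.05. Hsd17b10 is at -0.81 and -0.76 and Akr1c20 at 0.42 and 0.39, while Hsd3b7, Hsd17b13, Hsdl1 and Rdh16 lie on opposite sides of 0 in the 2 genotypes, a difference that was not called.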

How the data were processed

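The authors deposited 1 table of read counts per gene symbol for the 16 libraries; its 41585 rows are whole numbers with no normalization, and 16032 rows are 0 in every library. Per the submitters' processing notes the tools were FastQC, Trimmomatic, GSNAP, Subread and edgeR on GRCm38.p6, with no versions or order. The sources used here give neither the strand setting nor the rule for multi-mapping reads, so counts of close copies and antisense neighbours are uncertain. Per the labels' protocols, a Trizol extraction came before NEB Next Ultra library preparation. Groups come from the titles, sex and genotype labels.

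From the counts, edgeR 4.0.16 (R 4.3.3) filtered genes with filterByExpr, scaled by TMM and fitted 4 groups in 1 robust quasi-likelihood model; contrasts were two-sided, and SE was the size of the log2 fold change over the square root of F. Genotype was compared within each sex, averaged, and between the sexes, and sex within each genotype. Alternatives used limma 3.58.1, DESeq2 1.42.0, other scalings and filters, a replicate block, and each library left out. The fit was tested on simulated data. Depth of 5584587 to 9672708 counts limits rows such as Hsd3b5 in females. All 8 genes are named in each comparison; from each listed pathway, examples come from the up to 6 called genes with the smallest adjusted p, or the 1 with the smallest p where none was called; and for a gene with an SD of log2 CPM over 1, the 3 nearest profiles. Members and lists were chosen with earlier results of these data known. Gene positions are from RefSeq, exons and strands from GENCODE M21, and sequences from RefSeq (GRCm38.p6).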

Additional observations from a re-analysis of the deposited data

Results flagged for a closer look

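In 32 groups of 4 libraries (8 genes in 4 groups), 4 had 1 library far from the other 3, by a gap over the group's range above Dixon's critical value; chance flags about 1 group in 20. Hsd17b2 stood at 101 CPM in hCYP2B6-Tg male 4, against 93.3 to 93.7 CPM in the other hCYP2B6-Tg males. It stood at 98.0 CPM in Cyp2b-null male 1, below the 111 to 114 CPM of the other Cyp2b-null males. Akr1c6 stood at 1288 CPM in hCYP2B6-Tg female 4, above the 1107 to 1126 CPM of the other hCYP2B6-Tg females. Hsd3b5 stood at 0.350 CPM in Cyp2b-null female 1, which is 2 counts, and at 0 in the other Cyp2b-null females. With 0 in the others any count raises this flag, so the chance rate above does not apply to it. The value also lies below the floor of 0.526 CPM of Cyp2b-null female 1.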

How the results depend on the processing

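Of 1232 values of the 8 genes under 10 other settings and 16 fits that each left out 1 library, 1152 kept their direction and side of the threshold, 27 lost a call, 8 gained one and 45 changed sign, of which 0 had passed in the main fit. Settings added after the data had been seen were the omission of Cyp2b-null females 1 and 3 and hCYP2B6-Tg male 4, edgeR's earlier fitting method, levels per length without hCYP2B6-Tg male 4, and the counts of other enzymes under each alternative. Same-numbered libraries of one sex did not deviate together (correlation -0.062 to 0.075 over 6 pairs), nor did every pair of one genotype (-0.11 to 0.12 over 6 pairs, 1 over 0.1) or of all 18 pairs (-0.11 to 0.19, 2 over 0.1), so the number was not taken as a pairing. With it as a replicate block, 4 of the 8 genes passed between the sexes in hCYP2B6-Tg livers (7 without). Hsd3b3 (edgeR adjusted p = 0.109), Hsd17b6 (0.0672) and Akr1c6 (0.0856) were no longer called. The summed Hsd3b value between the sexes in hCYP2B6-Tg livers was -0.69 with the block (edgeR adjusted p = 0.0641), so that call was lost too. Hsd3b5 between genotypes in males was -2.27 with the block (edgeR adjusted p = 0.510). The block changed the sign for Srd5a1 between genotypes in males (-0.035), Akr1c6 averaged over the sexes (-0.020) and Hsd17b2 between the sexes in Cyp2b-null livers (0.0061). Apart from Hsd3b5, at the detection limit in females, values that changed sign were at most 0.174 in size in the main fit, on the log2 scale. Other sign changes concerned values that had not passed, all between genotypes except Hsd17b2 between the sexes in Cyp2b-null livers. They were Hsd3b3 averaged over the sexes with library totals only (-0.00033) and Hsd17b2 averaged with no filter (0.0011). Without the 3 libraries they were Akr1c6 in females (-0.030), Hsd3b5 (1.17), Hsd17b2 (0.022) and Akr1c6 (-0.021) averaged, and Hsd3b2 (-0.093), Srd5a1 (-0.097) and Akr1c6 (-0.019) for the difference between the sexes. Against the summed Hsd3b rows, Hsd3b2 alone gave -0.025 in females and Hsd3b3 alone 0.014 averaged. With 1 library left out, values between genotypes in females spanned -0.12 to 0.064 for Hsd3b2, -8.9e-05 to 0.45 for Hsd17b6 and -0.030 to 0.13 for Akr1c6. In males they spanned -0.12 to 0.19 for Hsd17b6, -0.079 to 0.18 for Srd5a1 and -0.092 to 0.012 for Akr1c6. Averaged over the sexes they spanned -0.041 to 0.068 for Hsd3b3, -0.44 to 0.97 for Hsd3b5, -0.040 to 0.021 for Hsd17b2 and -0.031 to 0.048 for Akr1c6. The Hsd17b6 difference between the sexes spanned -0.073 to 0.37, and Hsd17b2 between the sexes in Cyp2b-null livers -0.075 to 0.016. The number of the 8 genes passing between the sexes in hCYP2B6-Tg livers was 3 to 7 with 1 library left out: 3 without hCYP2B6-Tg female 2, 4 without hCYP2B6-Tg female 5, hCYP2B6-Tg male 3 or hCYP2B6-Tg male 5. Of the other steroid enzymes 0 to 1 passed averaged over the sexes, 1 without hCYP2B6-Tg female 4. Over all genes DESeq2 called 12 between genotypes in females (0 with edgeR), 47 in males (15), 31 averaged (2) and 16 for the difference between the sexes (6). Apart from the omitted libraries, the cause of these changes was not tested. Depth limits Hsd3b5 in females most.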
